A study of Drosophila melanogaster with 13 samples.

Results

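The stretch described here is the left arm of Drosophila chromosome 3 (3L, Release 5, dm3) from its start to 22 Mb, without the windows at 2.1 to 2.4 Mb and 8.6 to 8.9 Mb, which hold amplified gene clusters of the follicle cells. All peaks of the 9 deposited peak lists that start in this stretch were taken, which gave 2299 of the 83082 peaks in all lists. The stretch was divided into 214 windows of 100 kb. The choice used positions only. The 2 windows at 13.7 and 18.2 Mb were named beforehand with earlier results of these data known.

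The study had 13 ChIP-seq samples, 1 per group, of which 4 were inputs that entered only through the peak calls. Salivary glands were dissected from wandering larvae of the third instar of a strain labelled SuUR and of OrR, a wild-type strain. They were probed with an antibody against gamma-H2Av in both strains and with rabbit IgG in OrR. Egg chambers were taken from OrR females, pooled from stages 12 and 13 or of stage 10 alone, with 600 egg chambers per ChIP, and were probed with antibodies labelled SUUR and Cdc45 and with IgG. The labels give no allele for the SuUR strain, and no IgG library of that strain was analysed here, so OrR IgG served as background for both strains. All egg chamber groups came from females kept for 2 days on wet yeast and were fixed in 2% formaldehyde. Whole egg chambers hold germline cells beside the follicle cells, and each group is 1 library of pooled tissue.

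Gamma-H2Av is the phosphorylated form of the fly histone variant H2Av and marks chromatin around DNA breaks. SUUR, the product of Suppressor of Underreplication, is a chromatin protein of late replicating regions that slows replication forks. In the polyploid gland nuclei of wild-type larvae, such regions are copied less often than the rest of the genome, and in SuUR mutants this underreplication is largely lost. Cdc45 is a subunit of the replicative helicase and travels with active forks. In follicle cells both proteins have been studied at the amplified gene clusters, where origins fire in stage 10 and forks move outward later.

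The deposited lists of all 4 egg chamber libraries with a SUUR or Cdc45 label carry, in the header's run name, the other antibody. The labels are used here, and which antibody gave which library cannot be told apart. After duplicate removal the SuUR gamma-H2Av library had 15996251 tags, the OrR gamma-H2Av library 19208769 and the OrR IgG library 16337826. The egg chamber libraries had between 2592149 and 8265341 tags, except that labelled SUUR at stage 10, which had 353742. With 1 library per group no test between groups was possible. Shares are given with Wilson 95% intervals, which cover counting error only.

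In glands, gamma-H2Av peaks on this stretch were nearly all of OrR. SuUR glands had 4 peaks covering 17.3 kb, whereas OrR glands had 71 peaks covering 354.8 kb. OrR IgG had 57 peaks covering 260.3 kb. The OrR gamma-H2Av peaks lay close together in a few places, and 5 of 214 windows were rich in them, at 4.9, 10.2, 13.7, 18.2 and 18.3 Mb. That is 2.34% of the windows, near the 2.85% of all windows on the major arms. The SuUR list had no peak in any of these 5 windows. They were chosen by OrR coverage, and SuUR peaks lay in only 5 of the 214 windows, so this absence is not a further result.

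Covered length of SuUR peaks was 0.0489 of that of OrR peaks, at 0.833 of the tags. The mean width of a peak was 4335 bp in SuUR and 4997 bp in OrR, so the gap lay in the number of peaks. When only as many OrR peaks as SuUR peaks were taken, the 4 with the lowest p in each list, the ratio of lengths was 0.618. When each list was cut to its upper part by p, the ratio was 0.0135. These peaks were 1.95% (0.761 to 4.91) of the SuUR peaks on the 5 major arms, against 10.5% (8.40 to 13.0) of the OrR peaks and 10.98% (8.57 to 14.0) of the OrR IgG peaks.

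The contrast with the centromere end of 3L, beyond 22 Mb, showed where the SuUR list had its peaks on this arm. There SuUR glands had 43 peaks covering 294.7 kb, against 120 peaks covering 362.6 kb in OrR glands. The OrR IgG list had 102 peaks covering 237.4 kb in the same place. Thus 43 of the 47 SuUR peaks on 3L lay in the centromere end, and 120 of the 191 OrR peaks. Neither gamma-H2Av list had a peak in the excluded amplicon windows.

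**Figure D1:**
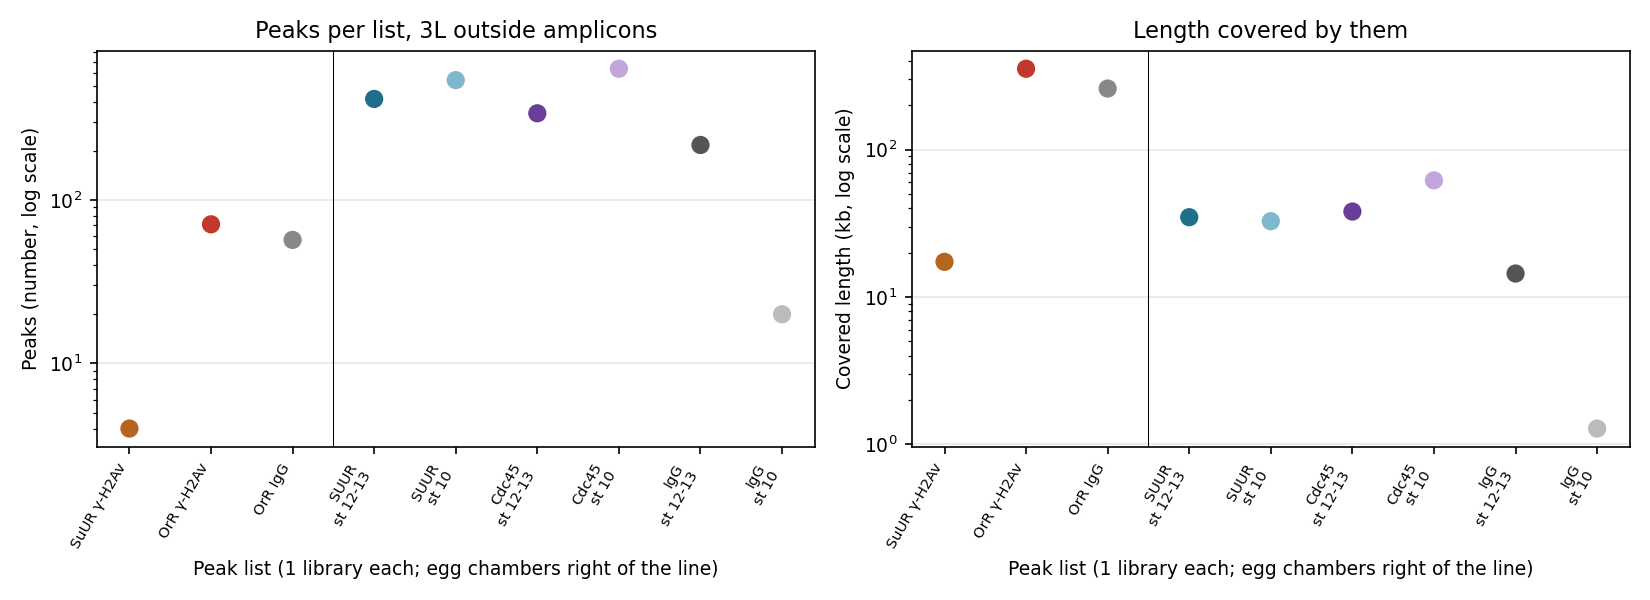
Number of peaks (left) and length covered by them (right) on 3L outside the amplicon windows and the centromere end, for each of the 9 peak lists, both on a log scale. Each point is 1 library, and egg chamber libraries stand right of the line. SuUR gamma-H2Av has the fewest peaks of the 9 lists, 4, and stage 10 IgG covers the least length, 1.28 kb.

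The 4 SuUR peaks stood alone, with no neighbour of the same list within 5 kb. They lay at chr3L:9913843-9917983 (347 tags, 2.91-fold over input), chr3L:10056251-10059675 (197 tags, 4.02-fold), chr3L:13528010-13533279 (375 tags, 2.81-fold) and chr3L:18599973-18604476 (359 tags, 2.45-fold). The median fold of the SuUR peaks was 2.86, that of the OrR peaks 4.16 and that of the OrR IgG peaks 3.64. The SuUR peak of highest fold, at 10.06 Mb, was also the site of an OrR IgG peak of 5.30-fold. None of the 4 SuUR peaks overlapped an OrR gamma-H2Av peak, and with 4 peaks this allows a share of up to 75.0%. None of the 71 OrR peaks overlapped a SuUR peak, which allows up to 4.23%. By comparison, 2 of 57 OrR IgG peaks (3.51%, 0.968 to 11.9) overlapped a SuUR peak. Over all peaks on the major arms, these included, 77 of 205 SuUR peaks (37.6%, 31.2 to 44.4) overlapped an OrR gamma-H2Av peak and 59 (28.8%, 23.0 to 35.3) an OrR IgG peak. The SuUR peak at 10.06 Mb ended 0.373 kb short of an OrR gamma-H2Av peak of 4.85-fold, at chr3L:10060048-10069733, and so counted as not shared. With 4 SuUR peaks, no difference in sharing was detectable.

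A window counted as rich when its gamma-H2Av coverage exceeded its OrR IgG coverage by 20 percentage points or more. In SuUR 0 of 214 windows were rich, and 0.921% of all windows on the major arms. This 0 follows from the number of peaks and is not a further result, since the 4 SuUR peaks together cover less than the 20 kb that a rich window needs. In OrR 5 of 214 windows were rich, or 2.34%, against a background of 2.85% of all windows on the major arms. The share of rich OrR windows was therefore near that of the arms as a whole, whose windows include amplicons and centromere ends that the stretch leaves out. OrR gamma-H2Av and OrR IgG were called against the same input.

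In the window at 18.3 Mb, SuUR peaks covered 0%, OrR gamma-H2Av peaks 57.4% and OrR IgG peaks 12.3%. In its neighbour at 18.2 Mb, SuUR peaks covered 0%, OrR gamma-H2Av peaks 39.3% and IgG peaks 6.17%. In the window at 13.7 Mb, SuUR peaks covered 0%, OrR gamma-H2Av peaks 53.6% and IgG peaks 8.38%. The number of OrR gamma-H2Av peaks in these windows was 15 at 18.3 Mb, 9 at 18.2 Mb and 12 at 13.7 Mb. Each of the other rich windows held 4. At 10.2 Mb SuUR peaks covered 0%, OrR gamma-H2Av peaks 26.7% and IgG peaks 5.73%. At 4.9 Mb SuUR peaks covered 0%, OrR gamma-H2Av peaks 23.2% and IgG peaks 0%. The window closest below the limit was the one at 13.6 Mb, with 0% in SuUR, 15.2% in OrR gamma-H2Av and 0% in IgG.

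**Figure D2:**
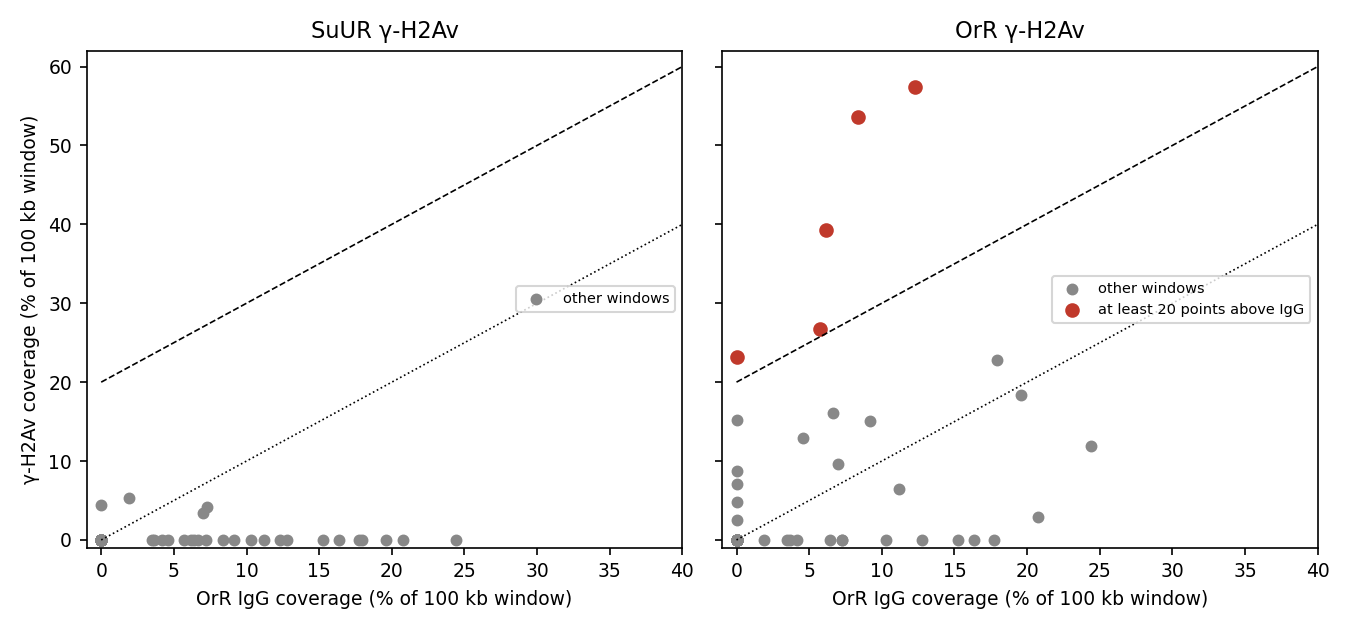
Coverage of each 100 kb window by gamma-H2Av peaks (y axis, percent) against coverage by OrR IgG peaks (x axis, percent), for SuUR (left) and OrR (right) glands. Each point is 1 of 214 windows, the dotted line is equal coverage, the dashed line is 20 points above it, and red points are the 5 rich windows. SuUR coverage does not exceed 5.27% in any window, whereas OrR coverage reaches 57.4%.

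Over all windows OrR gamma-H2Av was below IgG about as often as above it. OrR gamma-H2Av covered more than IgG in 15 windows and less in 16, and neither list had a peak in 183. SuUR gamma-H2Av covered more than OrR IgG in 2 windows and less in 24. The window at 5.0 Mb had 2.96% under OrR gamma-H2Av and 20.7% under IgG. The window at 10.1 Mb had 18.4% under OrR gamma-H2Av and 19.6% under IgG. The window at 17.0 Mb had no OrR gamma-H2Av peak and 17.7% under IgG. At the arm's very start, 0.0 Mb, OrR gamma-H2Av covered 11.9% and IgG 24.4%. An IgG peak was overlapped by 1 of the 4 SuUR peaks and by 17 of the 71 OrR peaks (23.9%, 15.5 to 35.0).

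Along the arm the OrR gamma-H2Av peaks were gathered between 10 and 20 Mb. There were 29 peaks covering 150.6 kb at 10 to 15 Mb and 33 covering 153.3 kb at 15 to 20 Mb. The rest of the stretch held 5 peaks at 0 to 5 Mb, 2 at 5 to 10 Mb and 2 at 20 to 22 Mb. IgG leaned the same way, with 19 peaks at 10 to 15 Mb and 23 at 15 to 20 Mb, 7 in each 5 Mb before and 1 after. The 5 windows of highest coverage held 56.4% of the length under OrR gamma-H2Av peaks and 38.6% of the length under IgG peaks.

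Peaks were joined into a run where neighbours of 1 list lay at most 5 kb apart, and runs of at least 5 peaks were kept. This limit was chosen after the peaks were seen. OrR gamma-H2Av had 2 runs, which held 34 of its 71 peaks (47.9%), whereas OrR IgG had none among its 57 peaks. IgG peaks did stand in groups just short of 5 peaks, at chr3L:81-19894 and chr3L:15393131-15408499. SuUR gamma-H2Av, with 4 peaks on the stretch, could not have a run of 5, so runs give no contrast between the strains beyond the number of peaks. Of the OrR gamma-H2Av peaks 78.9% had a neighbour within 5 kb, against 43.9% of the IgG peaks.

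The first run spanned 71.9 kb at chr3L:13686340-13758224 and had 15 peaks. They covered 67.1 kb, or 93.4% of it, with a median gap of 67 bp. The largest gap, 3.25 kb, lay near its centre. Folds over input were highest toward the flanks, at 6.60 for chr3L:13691380-13696514 and 6.26 for chr3L:13741603-13747887. The peaks next to the centre had 3.83-fold at chr3L:13720037-13722444, 3.35-fold at chr3L:13723224-13725213 and 4.19-fold at chr3L:13725259-13728907. Within the span SuUR gamma-H2Av had 0 peaks and OrR IgG had 2, covering 1.97 kb. A lone OrR peak of 4.16-fold lay to its left at chr3L:13667002-13668643.

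The second run spanned 92.7 kb at chr3L:18250934-18343608, with 19 peaks covering 78.1 kb, or 84.2% of it. Its largest gap was 4.07 kb. It held the OrR gamma-H2Av peak of highest fold on the stretch, 7.0-fold with 450 tags over 9005 bp at chr3L:18310482-18319486. The widest peak of the run, 13.4 kb at chr3L:18265569-18278925, had 5.43-fold. Folds were lowest at its left end, 3.21 for chr3L:18250934-18254627 and 3.09 for chr3L:18260247-18264136. A further group of 4 peaks, of 2.80-fold to 4.04-fold, followed at 18.349 to 18.366 Mb. Within the run SuUR gamma-H2Av had 0 peaks and OrR IgG had 6.

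**Figure D3:**
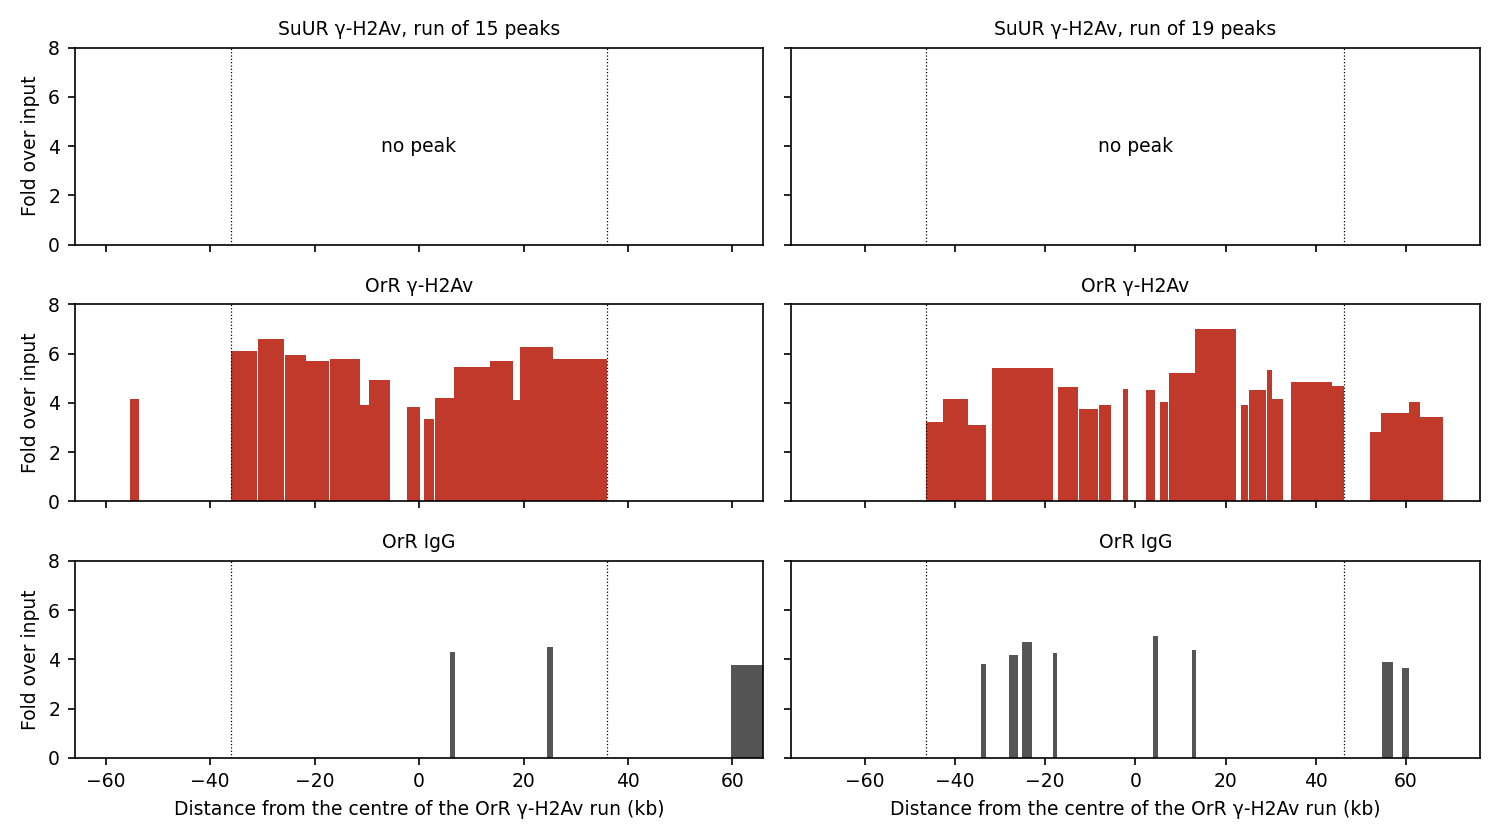
Fold over input of each peak (height of the bar; the width is the width of the peak) against distance from the centre of the OrR gamma-H2Av run in kb, for SuUR gamma-H2Av (top), OrR gamma-H2Av (middle) and OrR IgG (bottom), at the runs of 15 peaks (left) and 19 peaks (right). Dotted lines mark the ends of the run. The OrR gamma-H2Av bars nearly fill both spans, SuUR has no bar, and the IgG bars are few and narrow.

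The peaks of the runs had higher folds but fewer tags than other OrR peaks. The 34 peaks in runs had a median of 4.65-fold (3.09 to 7.0), against 3.78-fold (2.68 to 6.08) for the 37 elsewhere. Their median tag density was 52.1 tags per kb (43.3 to 70.9), against 74.2 tags per kb (51.8 to 179.8) elsewhere. A fold over input can thus be high where the ChIP tags themselves are sparse. OrR IgG, called against the same input, had the same order, with medians of 4.35-fold and 46.0 tags per kb for its 8 peaks in the runs, against 3.62-fold and 59.7 tags per kb for its 49 elsewhere. The IgG peaks in the runs were short, with a median of 1034.5 bp, against 4235 bp elsewhere. The part of input depth in the folds of the runs was not tested.

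**Figure D4:**
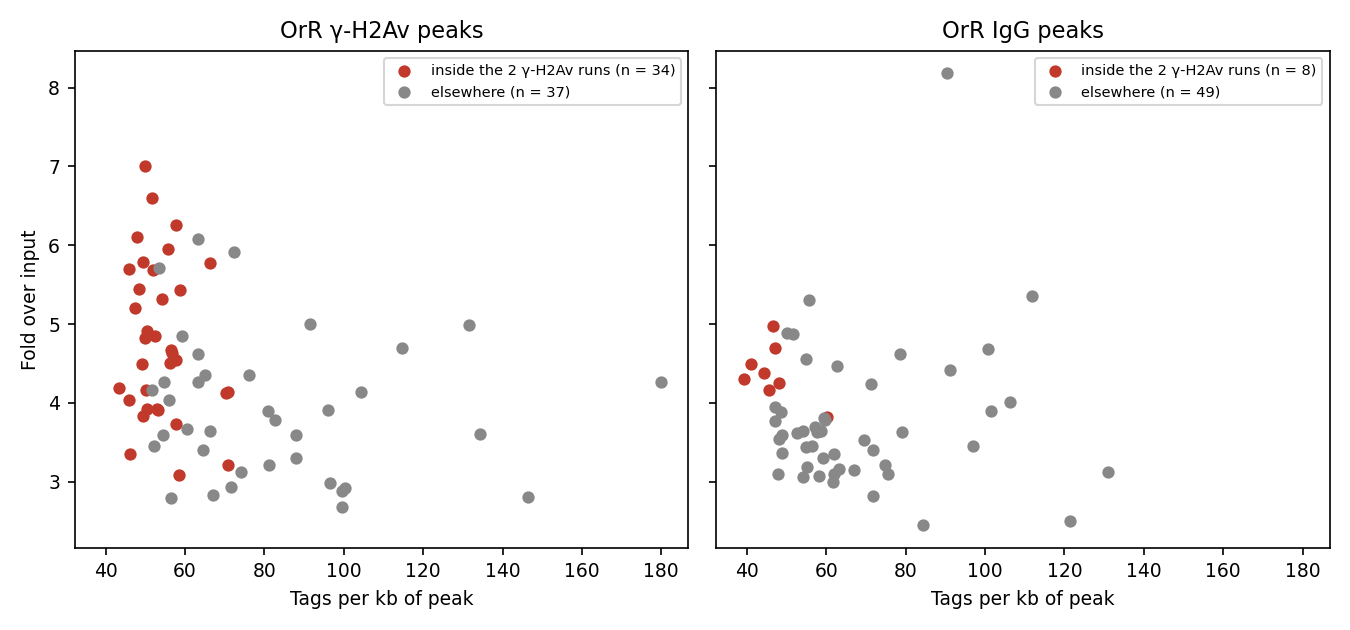
Fold over input (y axis) against tags per kb of peak (x axis) for each OrR gamma-H2Av peak (left) and each OrR IgG peak (right). Red points lie inside the 2 OrR gamma-H2Av runs and grey points elsewhere. The 34 gamma-H2Av peaks in the runs lie at 43.3 to 70.9 tags per kb, and the densest peaks, up to 179.8 tags per kb, lie outside them.

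Outside the runs some OrR gamma-H2Av peaks were wide and dense. The densest, at chr3L:15454712-15470666, had 179.8 tags per kb over 16.0 kb at 4.27-fold. A peak at chr3L:15275146-15290260 had 91.4 tags per kb over 15.1 kb at 5.0-fold. The highest fold outside the runs was 6.08, at chr3L:4935072-4942225 in the 4.9 Mb window. The IgG peak of highest fold, 8.18 at chr3L:20327795-20332368, overlapped an OrR gamma-H2Av peak of 4.62-fold.

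In egg chambers, peaks on this stretch were short and covered little of it. Libraries labelled SUUR had 415 peaks covering 34.8 kb at stages 12-13 and 541 covering 32.7 kb at stage 10. Libraries labelled Cdc45 had 339 peaks covering 38.1 kb at stages 12-13 and 635 covering 61.96 kb at stage 10. IgG had 217 peaks covering 14.4 kb at stages 12-13 and 20 covering 1.28 kb at stage 10. Median peak widths lay between 49 and 89 bp in these 6 lists. In the gland lists they lay between 3651 and 4353 bp, from another version of the peak caller and another p limit.

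The stage 10 library labelled SUUR differed from the others in the kind of peak it held. At the summit, 525 of the 541 (97.0%) held a pileup under 5 tags, and the median pileup was 3 tags. Its peaks were spread over 188 of 214 windows, against 61 windows for the stages 12-13 library labelled SUUR. Peaks with a neighbour within 5 kb were 28.1% of it, against 95.4% at stages 12-13. The ratio of covered length between the stages, 1.06, was 31.0 when stage 10 peaks with a pileup of at least 5 alone were kept, and 0.912 without peaks that overlapped IgG. The limit of 5 was set on stage 10 alone, was not scaled to depth, and removed 97.0% of its peaks. At stages 12-13 the lowest pileup was 7, so it would have removed none. The 31.0 is therefore not a further result. At stage 10 the covered length came mostly from peaks of very few tags, in the library of lowest depth.

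The Cdc45-labelled lists covered less at stages 12-13 than at stage 10, at a ratio of 0.614, with 6942374 tags at stages 12-13 and 8265341 at stage 10. With equal numbers of peaks the ratio was 0.913. IgG moved the other way, since it covered 11.3 times as much at stages 12-13 as at stage 10, with 2592149 tags at stages 12-13 and 3891175 at stage 10.

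For egg chambers a window was called enriched when ChIP coverage exceeded that of the same stage's IgG peaks by 5 percentage points or more. Under the SUUR label 0 of 214 windows passed at stages 12-13, against 0.586% of all windows on the major arms, and 0 at stage 10, against 0.0838%. Under the Cdc45 label 1 window passed at stages 12-13, or 0.467%, against 1.76% on the major arms. At stage 10 it was 2 windows, or 0.935%, against 2.43%. The Cdc45-labelled shares were below those of the arms as a whole, but they rest on 1 and 2 windows, so no difference is shown. Each 0 under the SUUR label allows up to 1.40% of the windows, more than the arm shares of that label. No difference is shown for it either. The arm windows include amplicons and centromere ends, which the stretch leaves out. The 3 lists of each stage were called against 1 input.

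The window at 17.8 Mb passed at both stages under the Cdc45 label. The Cdc45-labelled peaks covered 5.66% of it at stages 12-13 and 8.58% at stage 10. The SUUR-labelled peaks covered 0.563% at stages 12-13 and 0.811% at stage 10, and IgG had no peak there at either stage. The peaks lay in 1 run, of 28 peaks over 18.0 kb at stages 12-13 and of 37 peaks over 19.0 kb at stage 10. Its strongest part was near 17.865 Mb, where the peak at chr3L:17864559-17865273 had 5.22-fold at stages 12-13 and its stage 10 counterpart, chr3L:17864554-17865294, had 6.01-fold. Neither SuUR nor OrR gland gamma-H2Av had a peak in this window.

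The window at 5.1 Mb passed at stage 10 only. Cdc45-labelled peaks covered 3.22% of it at stages 12-13 and 7.90% at stage 10. SUUR-labelled peaks covered 0.431% at stages 12-13 and 0.260% at stage 10, and IgG 0.432% at stages 12-13 and 0.054% at stage 10. The next windows for the Cdc45 label included 21.3 Mb, with 2.08% at stages 12-13 and 3.47% at stage 10, and 20.2 Mb, with 1.67% and 3.30% at these stages. The window at 21.1 Mb had 1.77% at stages 12-13, above that at 20.2 Mb, and 2.54% at stage 10, below it. All 5 of these windows had the higher Cdc45-labelled coverage at stage 10.

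The windows that led the SUUR-labelled list at stages 12-13 were others. At 6.4 Mb, SUUR-labelled peaks covered 2.43% at stages 12-13 and 0.587% at stage 10, with 28 and 11 peaks. In that window Cdc45-labelled peaks covered 1.34% at stages 12-13 and 0.834% at stage 10, and IgG 0.551% at stages 12-13 and 0% at stage 10. At 11.4 Mb, SUUR-labelled peaks covered 1.29% at stages 12-13 and 0.193% at stage 10. At 13.8 Mb they covered 1.19% at stages 12-13 and 0.356% at stage 10, at 20.1 Mb 1.09% and 0.259%, and at 7.9 Mb 1.21% and 0.049% at these stages. These 5 windows had the highest SUUR-labelled coverage above IgG at stages 12-13. The window at 8.0 Mb was second by coverage alone, with 1.94% at stages 12-13 and 0.095% at stage 10. It also had the highest IgG coverage of stages 12-13, 1.02%, and so did not lead by the difference to IgG.

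**Figure D5:**
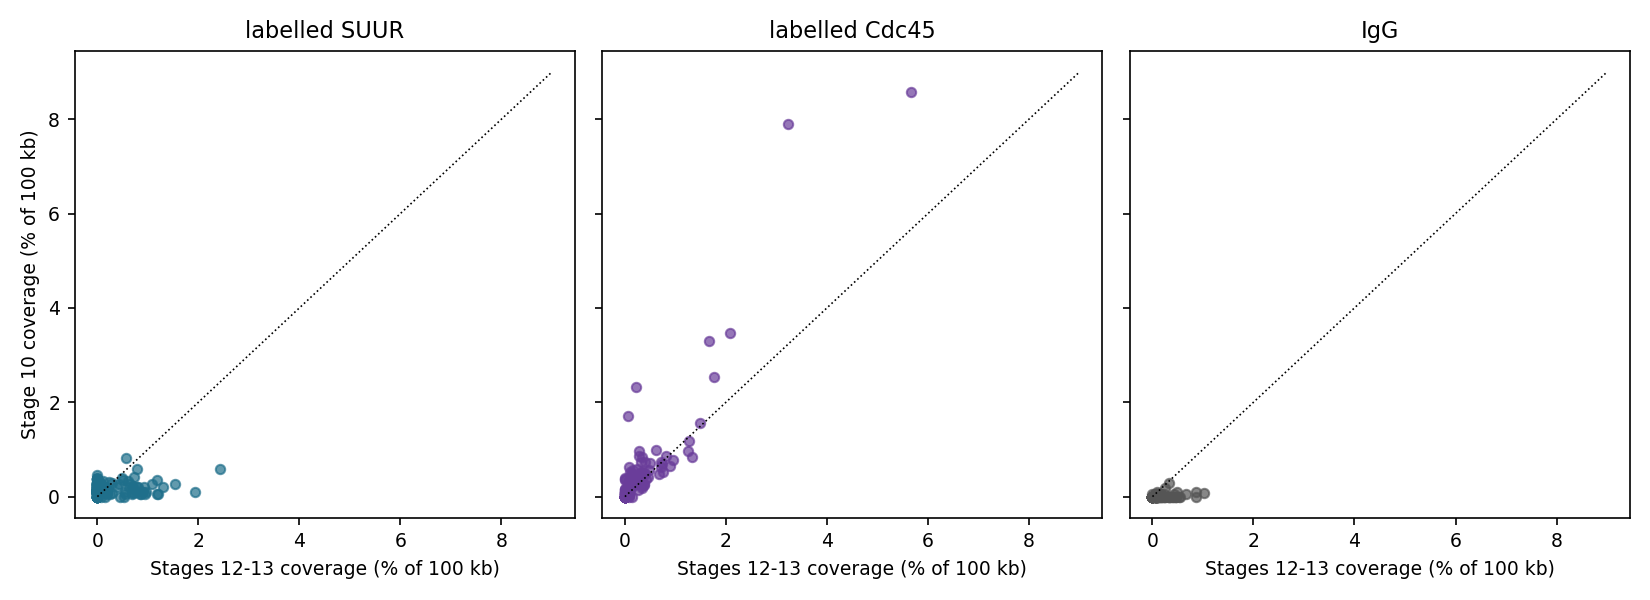
Coverage of each 100 kb window by peaks at stages 12-13 (x axis, percent) and at stage 10 (y axis, percent) for the libraries labelled SUUR (left), labelled Cdc45 (middle) and IgG (right). Each point is 1 of 214 windows and the dotted line is equal coverage. Under the Cdc45 label the windows of highest coverage lie above the line, up to 5.66% at stages 12-13 and 8.58% at stage 10, and SUUR-labelled windows do not exceed 2.43%.

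Overlap between the stages was set beside the same overlap over all peaks on the major arms, these included. Of 415 SUUR-labelled peaks of stages 12-13, 11 (2.65%, 1.49 to 4.68) overlapped a stage 10 peak of that label, and 11 of the 541 stage 10 peaks (2.03%, 1.14 to 3.60) overlapped a stages 12-13 peak. Over the major arms these shares were 4.93% (4.23 to 5.74) at stages 12-13 and 8.23% (7.36 to 9.20) at stage 10. Of 339 Cdc45-labelled peaks of stages 12-13, 160 (47.2%, 41.9 to 52.5) overlapped a stage 10 peak, and 148 of the 635 stage 10 peaks (23.3%, 20.2 to 26.8) overlapped one of stages 12-13. Over the major arms it was 52.4% (50.9 to 53.9) at stages 12-13 and 30.5% (29.4 to 31.5) at stage 10. The higher share under the Cdc45 label was thus found over the arms as a whole as well, and each share of this stretch was below that of the arms. The arm peaks include those of amplicons and centromere ends, which the stretch leaves out. The lower shares can therefore not be read as a trait of the stretch. For IgG on the stretch it was 9 of 217 (4.15%, 2.20 to 7.69) at stages 12-13 and 9 of 20 (45.0%, 25.8 to 65.8) at stage 10, and over the major arms 8.15% (6.85 to 9.66) at stages 12-13 and 53.4% (47.2 to 59.5) at stage 10. Of the 11 shared SUUR-labelled peaks, 5 overlapped an IgG peak of either stage, against 25 of the 160 shared Cdc45-labelled peaks. The share of the stage 10 SUUR-labelled peaks was 1.12% without those that overlapped IgG. With a pileup of at least 5 it was 18.8%, or 3 of 16 peaks. These 3, at 13.331, 21.168 and 21.826 Mb, each lay at a stage 10 IgG peak, so the 18.8% shows no sharing beyond IgG sites.

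Shared Cdc45-labelled peaks stood together. The window at 17.8 Mb held 27 of them, and the window at 5.1 Mb held 25. A further 9 lay at 20.2 Mb, 9 at 21.1 Mb, 8 at 21.3 Mb and 7 at 9.5 Mb. Shared peaks of stages 12-13 had a median width of 103 bp, against 76 bp for the other Cdc45-labelled peaks of these stages, and the same median fold of 3.19. At stage 10 the shared peaks had a median width of 88.5 bp and a median of 3.98-fold, against 60 bp and 3.63-fold for the others. Since 1 bp of overlap sufficed, a wider peak was more likely to count as shared, so the widths are not a further result.

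The highest folds of the SUUR-labelled lists, and of the Cdc45-labelled list of stages 12-13, came from a site that was also in IgG. At 13.331 Mb (chr3L:13331137-13331227 in the stage 10 IgG list) all 6 egg chamber lists had a peak. SUUR-labelled folds there were 17.7 at stages 12-13 and 56.6 at stage 10, Cdc45-labelled folds were 9.62 at stages 12-13 and 3.77 at stage 10, and IgG folds were 30.5 at stages 12-13 and 17.7 at stage 10. The stage 10 IgG peaks at 21.826 Mb and 21.168 Mb were likewise the sites of the next highest SUUR-labelled folds of stage 10, 25.1 and 17.7. Each of the 3 SUUR-labelled peaks of highest fold at stage 10 thus had an IgG peak of its stage at the same site. The Cdc45-labelled list of stage 10 differed, since its peak of highest fold, 6.54 at chr3L:17865347-17865650, had no IgG peak of either stage, and its fold at 13.331 Mb was close to its median of 3.70.

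Overlap of egg chamber peaks with gland damage peaks was counted on this stretch alone, and not over the major arms. OrR gamma-H2Av peaks covered 1.66% of the stretch and gland IgG peaks 1.22%. Without a share over the arms as background, the counts below are not read as few or many. Of the SUUR-labelled peaks, 3 of 415 (0.723%, 0.246 to 2.10) at stages 12-13 and 3 of 541 (0.555%, 0.189 to 1.62) at stage 10 overlapped an OrR gamma-H2Av peak. Of the Cdc45-labelled peaks, 1 of 339 (0.295%, 0.0521 to 1.65) at stages 12-13 and 10 of 635 (1.57%, 0.858 to 2.87) at stage 10 did so. Egg chamber IgG peaks overlapped an OrR gamma-H2Av peak in 1 of 217 cases at stages 12-13 and 0 of 20 at stage 10, which allows up to 15.0%. Overlap with the gland IgG list was 28 of 415 (6.75%) and 8 of 541 (1.48%) for the SUUR label at stages 12-13 and stage 10, and 22 of 339 (6.49%) and 66 of 635 (10.4%) for the Cdc45 label. Such overlaps were clustered. Of the 28 at stages 12-13 under the SUUR label, the gland IgG peaks at 5.03, 9.26 and 17.07 Mb held 10, 5 and 9. Of the egg chamber IgG peaks, 14 of 217 (6.45%) at stages 12-13 and 0 of 20 at stage 10 overlapped the gland IgG list. Without shares over the arms, overlap with the 2 gland lists is not compared. In the rich gland window at 13.7 Mb, SUUR-labelled peaks covered 0.076% at stages 12-13 and 0% at stage 10, and neither Cdc45-labelled list had a peak.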

How the data were processed

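Processed peak lists of 9 ChIP libraries were used. Per the submitters' processing notes, CASAVA 1.5, BWA, the dm3 build and MACS were used. Each library had its own peak calls against an input, per the file headers, with MACS 1.4.2 in glands (p limit 1e-05, genome size 2.7e+09, far above that of a fly) and MACS 2.0.10.20130419 in egg chambers (p limit 1e-03, genome size 1.2e+08). The gland lists hold the authors' tag count per peak, a score that is −10 log10 of the p-value, a fold over input and, in percent, an FDR that was not used. The deposited egg chamber lists hold the pileup signal of each summit, a −log10 p-value and a fold over input. Folds, scores and pileups are the authors' own and serve to describe or rank peaks within a list. OrR gamma-H2Av and OrR IgG shared 1 input, and each egg chamber stage had 1 for its 3 libraries, so their overlaps are background and not results.

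Coverage of a window is the merged length of member peaks in it. A peak was shared when it overlapped by 1 bp or more. Windows and peaks were named from fixed sets, of which not all are printed. The sets were the windows given in the choice of members and all rich or enriched windows. To these came the 5 windows of largest difference to IgG per egg chamber list and the 3 highest IgG windows per list. The 3 peaks of highest fold per list were added. Single OrR peaks and the windows around the limits were picked after their values were seen, and so were the limits for runs and the pileup minimum of 5. The members and lists were chosen with earlier results of these data known. A count of 0 allows 3 counts. No library was replicated, so no p-value was computed. The code for window coverage, covered length and overlap was tested on simulated data, and the code for runs was not. Peaks were not placed in genes, since the gene table at hand is of Release 6. Computation used Python 3.11.15, numpy 2.4.6, pandas 2.3.3 and scipy 1.17.1.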

Additional observations from a re-analysis of the deposited data

Results flagged for a closer look

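In 4 of the 5 windows rich in OrR gamma-H2Av, coverage relative to OrR IgG had opposite signs in the strains, below IgG in SuUR and above it in OrR. SuUR minus OrR was -26.7 percentage points at 10.2 Mb, -53.6 at 13.7 Mb, -39.3 at 18.2 Mb and -57.4 at 18.3 Mb. The OrR sign was fixed by the choice of windows rich in OrR. SuUR had no peak in them, so each difference is the OrR coverage with a minus sign and not a further result. Over the whole stretch, covered length less that of OrR IgG was -242.98 kb in SuUR and 94.4 kb in OrR, a difference of -337.4 kb. Both strains were set against the IgG library of OrR, and SuUR was called against its own input. The differences were not tested, since each group was 1 library.

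Between stages, SUUR-labelled coverage less IgG also had opposite signs in 2 windows. The difference, stages 12-13 minus stage 10, was 1.09 points at 7.9 Mb and -0.548 points at 21.4 Mb. Each window was picked as 1 of the 5 leading windows of 1 stage, which fixed its sign at that stage. The differences were not tested either, and 97.0% of the stage 10 peaks of that label had a pileup under 5 tags.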

How the results depend on the processing

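For 15 values 56 alternatives were run, and 35 stayed within 1.5 times the value or within its interval. These 35 are no measure of stability, since they include all alternatives for values of 0. The overlaps between the SuUR and OrR gamma-H2Av lists were 0, and fewer peaks or a stricter overlap cannot raise a 0. SUUR-labelled coverage did not exceed 2.43% in any window, so a limit of 5 points was out of reach. Windows rich in OrR gamma-H2Av numbered 2 at 40 points, 2 in windows of 200 kb, 2 with the upper part of each list by p and 8 in windows of 50 kb, against 5. SuUR had 0 under each of these, which says nothing of stability, since its 4 peaks are too few and short to make a window rich. Windows enriched in Cdc45-labelled peaks numbered 3 at stages 12-13 and 6 at stage 10 with a limit of 2 points. They were 0 at both stages at 10 points and in 200 kb windows, and 0 at stages 12-13 with the upper part by p, against 1 and 2. For a 50% overlap the Cdc45-labelled shares were 36.6% at stages 12-13 and 17.6% at stage 10. The stages 12-13 share was 40.6% with the upper part by p, and the stage 10 share 19.8% without peaks in IgG. Against stage 10 peaks of pileup 5 or more, the SUUR-labelled share of stages 12-13 was 0.723%, and that of stage 10 for such peaks was 18.8%. The stage 10 peaks shared there each lay at a stage 10 IgG peak. Without peaks in IgG the stage 10 share was 1.12%. The SUUR-labelled ratio of lengths was 31.0 when stage 10 alone was held to a pileup of 5 or more. The SuUR over OrR ratio of lengths was 0.0135 with the upper part by p and 0.618 with equal numbers of peaks. The cause of these moves was not tested. No paired analysis was possible because each group had 1 library. The depth of the stage 10 library labelled SUUR, 353742 tags, limits what its peaks show, and libraries, not animals, are what is compared.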
